A study of Homo sapiens with 30 samples.

Results

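The genes described here are 10 enzymes of purine nucleotide synthesis in human acute myeloid leukemia (AML) cell lines: IMPDH1, IMPDH2, PPAT, GART, PAICS, PFAS, ADSL, ATIC, GMPS and PRPS2. They were chosen by name, as genes of the de novo pathway, with IMPDH2 singled out. All 10 were found by Ensembl ID in both count tables, among 60675 genes for overexpression and 58051 for knockout, and all 10 passed the filter on low counts, as did 17542 and 14490 genes in all. The choice was made with results of these data known. IMPDH2 is 1 of the 13 genes called in THP-1 MPC1 KO cells, so its values in THP-1 cells are given as a description and support nothing.

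The samples belong to 2 experiments. To overexpress miR-1 (OE), the lines MV4-11 and Molm-14, both with a FLT3 internal tandem duplication, were given a lentivirus in which an EF1α promoter drives GFP and sequence of the MIR1-2 host gene. To delete MPC1 (KO), which encodes part of the mitochondrial pyruvate carrier, the same lines and the monocytic line THP-1 were given a lentivirus with Cas9, GFP and 1 guide RNA. Controls of both kinds received empty vector (EV). Each of the 10 groups held n = 3 libraries, and the labels do not say whether these were separate cultures or infections, so p-values measure the spread between libraries, which may be technical. The total per library ranged from 15543301 to 20939985 counts for overexpression and from 5339360 to 9106478 counts for knockout. Levels are in CPM, a gene's counts scaled to a common library size. The 2 tables list different sets of genes, and no level was compared between them.

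The labels were checked first. MPC1 in KO libraries lay below the whole EV range of the same line, with a log2 fold change of -1.18 in MV4-11, -1.04 in Molm-14 and -0.84 in THP-1 cells. A transcript of the miR-1 host gene, MIR133A1HG, was counted in every OE library, at 2.26 to 4.06 CPM, and had no counts in EV. Summed over 8 myeloid markers, overexpression libraries held 1110.2 to 2388 CPM and knockout libraries 1497 to 9047 CPM. Sums over the T cell, erythroid and fibroblast lists stayed at or below 3.73 CPM in every library, while B cell markers reached 120 and epithelial markers 33.3 CPM.

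The de novo pathway builds the purine ring step by step on phosphoribosyl pyrophosphate (PRPP) and ends at inosine monophosphate (IMP), from which AMP and GMP are made. It draws on glutamine, glycine, aspartate, bicarbonate and one-carbon units carried by folate. IMP dehydrogenase, encoded by IMPDH1 and IMPDH2, starts the branch to GMP, and IMPDH2 is the form generally found high in proliferating cells, including leukemic blasts. The enzyme is the target of mycophenolic acid.

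In the order of their roles, PRPS2 (ENSG00000101911, chromosome X, 12791355 to 12824222, plus strand, GRCh38) makes PRPP. PPAT (ENSG00000128059, chromosome 4, 56393362 to 56435615, minus strand) commits PRPP to the pathway. GART (ENSG00000159131, chromosome 21, 33503931 to 33543491, minus strand) carries several of the early ring-building steps in 1 protein. PFAS (ENSG00000178921, chromosome 17, 8247618 to 8270491, plus strand) adds nitrogen from glutamine. PAICS (ENSG00000128050, chromosome 4, 56435741 to 56464578, plus strand) adds carbon dioxide and aspartate. ADSL (ENSG00000239900, chromosome 22, 40346461 to 40390463, plus strand) releases fumarate, both within the pathway and on the way to AMP. ATIC (ENSG00000138363, chromosome 2, 215311956 to 215349773, plus strand) closes the ring to give IMP. IMPDH2 (ENSG00000178035, chromosome 3, 49024325 to 49029447, minus strand) and IMPDH1 (ENSG00000106348, chromosome 7, 128392277 to 128409986, minus strand) oxidise IMP to XMP. GMPS (ENSG00000163655, chromosome 3, 155870650 to 155944020, plus strand) turns XMP into GMP. Both tables also list a gene on the opposite strand that overlaps IMPDH2 (ENSG00000272434), PPAT (ENSG00000270147), GART (SON), PFAS (CTC1) or ADSL (SGSM3-AS1), and SGSM3 overlaps ADSL on its own strand. BTF3P6 overlaps GART on its own strand and is listed for both series. Listed for overexpression only are ENSG00000284431, which overlaps ADSL, and ENSG00000288032, which overlaps GMPS, each on the same strand. The strand setting of the counting is not given, and reads of these pairs may be mixed.

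Because the OE vector carries miR-1, its mature sequence is shown with the seed (bases 2 to 8) in capitals, from RefSeq on GRCh38.
miR-1-3p: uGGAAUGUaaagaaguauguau
The 3′ untranslated regions of the members' canonical transcripts, 58 bases long in IMPDH2 and 109 in ATIC but 5040 in PAICS and 6328 in GMPS, were searched for matches to this seed. None of the 10 held an 8mer match (ACATTCCA), which 4.82% of 19559 genes held, and none held a 7mer that ends in the same A (CATTCCA), which 10.7% of genes held. The match of 7 bases without that A (ACATTCC), present in 7.80% of genes, occurred once, in PAICS, at base 3331 of its region, and is in capitals below.
PAICS: ccgggcatggtggcACATTCCtgtaatccc
A match of letters is a description and does not show that the site is bound.

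PPAT and PAICS, which stand head to head on chromosome 4, are shown with the 125 bases between their start sites as annotated in GENCODE, because they are neighbours that may share a promoter region (chr4:56435616-56435740, plus strand, GRCh38).
PPAT-PAICS: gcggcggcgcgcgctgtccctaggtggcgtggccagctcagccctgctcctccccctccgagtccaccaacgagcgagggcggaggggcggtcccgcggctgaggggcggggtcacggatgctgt
This stretch is 76.0% G and C and holds no CACGTG, the letters that MYC and its partner MAX bind. RefSeq promoter windows, from 250 bases before the start to 50 after, were given for 8 members (IMPDH2 and ADSL had none). The window given for PAICS lies at bases 56410257 to 56410556 of chromosome 4, within PPAT, and not at the head-to-head start shown above. CACGTG occurred on either strand in 2 of these 8, PPAT and ATIC, and in 7.43% of 27305 promoters. In PPAT it lies at -182 from the start, beyond the 125 bases shown and just past the annotated PAICS start. TGATGNAAT, the letters that ATF4 binds with its partners, occurred in 0 of the 8 and in 1.02% of all promoters.

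The question of the first comparison is what excess miR-1 does to these genes, and no member passed the test. In MV4-11 cells 0 of 10 members passed a false discovery rate (FDR) of 5% in edgeR's quasi-likelihood test, where 0.177% of all genes did. In Molm-14 cells 0 of 10 passed, where 0.0057% of all genes did. DESeq2 also called 0 members in each line, and at an unadjusted p under 0.05 there was 1 member in MV4-11 cells, PRPS2, and 0 in Molm-14 cells. The members' log2 fold changes lay between -0.03 and 0.14 in MV4-11 cells, with a median of 0.03 against 0.01 over all genes, and between -0.10 and 0.10 in Molm-14 cells, with a median of -0.02 against 0 over all genes.

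IMPDH2, the entry to GMP, stood at 351, 334 and 326 CPM in MV4-11 EV and at 309, 375 and 364 CPM in MV4-11 OE libraries. The groups overlapped, since 1 OE library was below all EV libraries and the other two were above them. The log2 fold change was 0.05 (SE 0.062, FDR 1), and without OE replicate 1 it was 0.14 (FDR 0.334). In Molm-14 cells IMPDH2 stood at 343, 377 and 347 CPM in EV and 377, 373 and 391 CPM in OE libraries, a log2 fold change of 0.10 (SE 0.062, FDR 1), with 1 EV library inside the range of the OE libraries.

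PRPS2, at the head of the pathway, stood at 59.1, 59.9 and 56.7 CPM in MV4-11 EV libraries and at 62.4, 64.9 and 65.9 CPM in MV4-11 OE libraries. These groups did not overlap, which was so for 9.17% of all genes in this comparison, and the log2 fold change was 0.14 (SE 0.059, FDR 0.774). In Molm-14 cells it was 50.05, 49.8 and 46.3 CPM in EV and 44.5, 43.9 and 48.0 CPM in OE libraries, a log2 fold change of -0.10 (SE 0.061, FDR 1). The difference between the lines in this effect was 0.24 on the log2 scale (SE 0.085, FDR 0.765), which did not pass. In that test of the difference between lines 0 of 10 members passed, 1 had an unadjusted p under 0.05, DESeq2 called 0, and 0.0456% of all genes passed. PAICS, the only member with a seed match, had a log2 fold change of 0.00 (SE 0.047) in MV4-11 and -0.02 (SE 0.047) in Molm-14 cells.

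**Figure D1:**
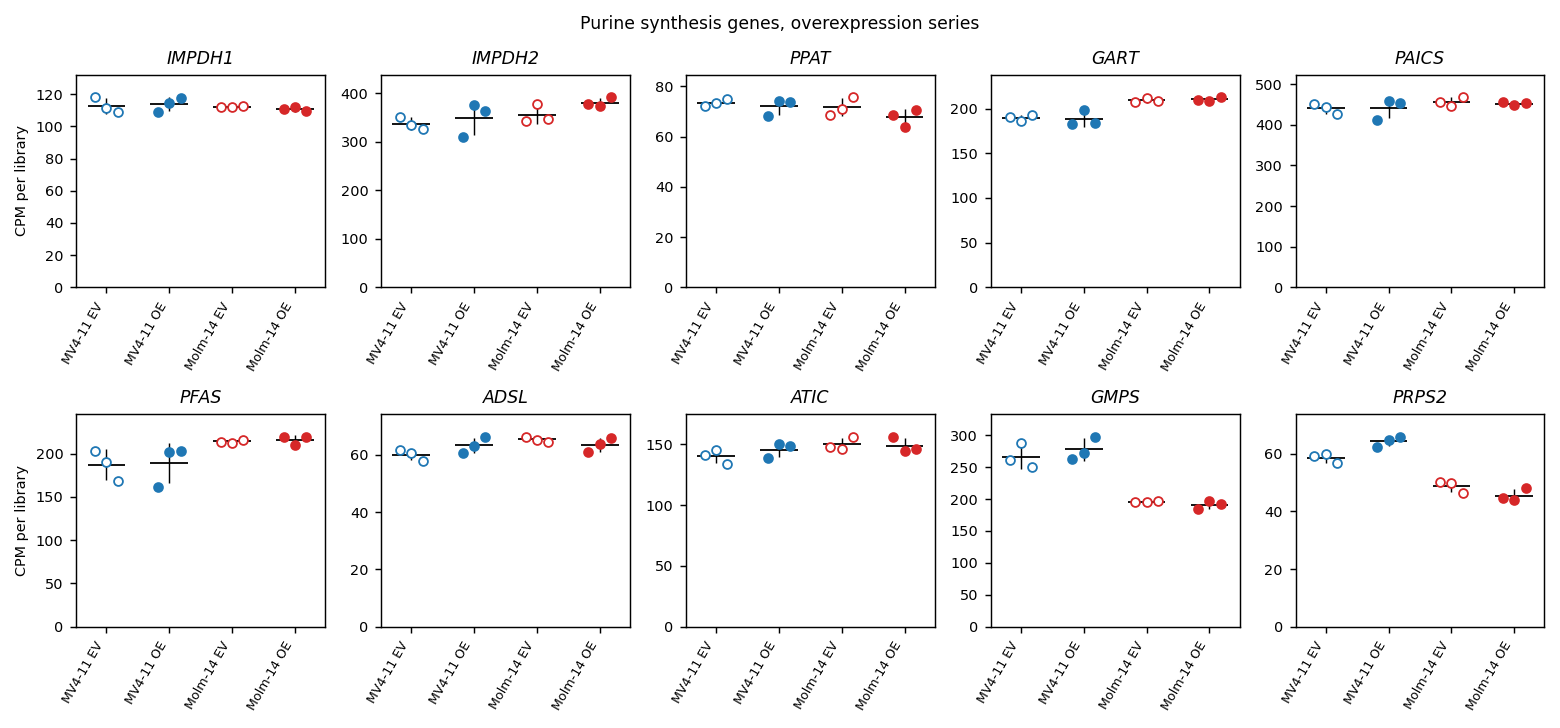
CPM of the 10 members in each of the 12 libraries of the overexpression series, 1 panel a gene, with open points for EV, filled points for OE, a line at the mean and a bar of 1 SD (n = 3). The OE and EV points of a line lie at similar heights in every panel, and MV4-11 lies above Molm-14 for GMPS and PRPS2.

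The second question is what loss of MPC1 does to them. In MV4-11 KO cells 0 of 10 members passed the FDR of 5%, where 5.41% of all genes did, DESeq2 called 0, and 3 members had an unadjusted p under 0.05. In Molm-14 KO cells 0 of 10 passed, where 2.4% of all genes did, DESeq2 called 0, and 0 had an unadjusted p under 0.05. In THP-1 KO cells 1 of 10 was called, IMPDH2, where 0.0897% of all genes were, and DESeq2 also called 1, IMPDH2. Nothing is read from that count because IMPDH2 was singled out. The median log2 fold change of the members was -0.01 in MV4-11, 0.02 in Molm-14 and 0.08 in THP-1 cells, against 0.02, 0 and 0.00 over all genes. Groups did not overlap for 3 of 10 members in MV4-11 (PPAT, PFAS and PRPS2), 0 in Molm-14 and 2 in THP-1 cells (IMPDH2 and GMPS), against 24.1%, 16.4% and 13.6% of all genes.

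IMPDH2 in THP-1 cells stood at 278, 277 and 232 CPM in the EV libraries and at 373, 364 and 339 CPM in the KO libraries, so that each KO library was above each EV library. The means were 262 ± 26.6 and 359 ± 17.8 CPM (SD, n = 3), a ratio of 1.37, and the log2 fold change was 0.45 (SE 0.089) with an FDR of 0.0390. IMPDH2 ranked 11 by p among all genes tested. The labels do not say that libraries with the same replicate number are paired. In THP-1 cells the deviations of all genes in such pairs had an r of 0.26 to 0.58. EV replicate 2 correlated better with another number. Within these pairs the log2 differences of IMPDH2 were 0.42, 0.39 and 0.55. With the replicate block its log2 fold change was 0.45 (FDR 0.0217). The call was lost in 5 of 6 fits that left out 1 THP-1 library, where the log2 fold change ran from 0.37 to 0.50 and the FDR reached 0.364. Of these 6 fits the call held only in the 1 without KO replicate 3 (0.49, FDR 0.0483). It was lost with the THP-1 libraries fitted alone (0.44, FDR 0.120). With all libraries it held in DESeq2 (0.44, FDR 0.00183), with RLE scaling (0.44, FDR 0.0417) and with no filter beyond 1 count (0.44, FDR 0.000397).

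In MV4-11 cells IMPDH2 stood at 543, 432 and 471 CPM in EV and at 542, 555 and 501 CPM in KO libraries, a log2 fold change of 0.15 (SE 0.088, FDR 0.337), and EV replicate 1 lay inside the KO range. Without that library the value was 0.24 (FDR 0.0876). In Molm-14 cells it stood at 685, 585 and 651 CPM in EV and at 679.7, 704 and 667 CPM in KO libraries, a log2 fold change of 0.09 (SE 0.087, FDR 0.790), with overlapping groups. The effect in MV4-11 minus that in THP-1 cells was -0.30 (SE 0.125, FDR 0.452), and in Molm-14 minus THP-1 cells it was -0.35 (SE 0.125, FDR 0.305), so neither difference passed. The effect in MV4-11 minus that in Molm-14 cells was 0.05 (SE 0.124, FDR 0.925). Over the 3 tests of differences between lines 0 of 10 members passed in each, by edgeR and by DESeq2, where 1.48% (MV4-11 and Molm-14), 0.193% (MV4-11 and THP-1) and 0.766% (Molm-14 and THP-1) of all genes passed. At an unadjusted p under 0.05 there were 0, 1 and 1 members.

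IMPDH1, which catalyses the same step, passed in none of the 3 lines. It stood at 95.8, 84.9 and 98.4 CPM in THP-1 EV and at 92.3, 93.3 and 106 CPM in THP-1 KO libraries, a log2 fold change of 0.06 (SE 0.106, FDR 0.904), and its values were -0.13 (SE 0.105) in MV4-11 and -0.08 (SE 0.106) in Molm-14 cells. Without MV4-11 EV replicate 2 the former was -0.23, and without Molm-14 KO replicate 3 the latter turned to 0.03. GMPS, the next enzyme towards GMP, stood at 269, 290.3 and 270.4 CPM in THP-1 EV and at 263, 266 and 256 CPM in THP-1 KO libraries, lower in each KO library, with a log2 fold change of -0.08 (SE 0.071, FDR 0.798). The other steps that lead to IMP had values in THP-1 cells from -0.04 (ATIC, SE 0.337) to 0.18 (ADSL, SE 0.092), and none of them passed. PFAS there went from 0.04 to -0.10 without KO replicate 3. In each of the 3 same-numbered pairs PPAT, GART, PAICS, ADSL and PRPS2 were higher in KO, and GMPS was lower. The log2 differences were 0.14, 0.11 and 0.15 for GART, 0.14, 0.20 and 0.21 for ADSL and at most 0.04 for PRPS2. The EV and KO groups of the higher members overlapped, and none of them passed. The share of all genes higher in all 3 pairs was not computed, so nothing is read from these pairs.

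**Figure D2:**
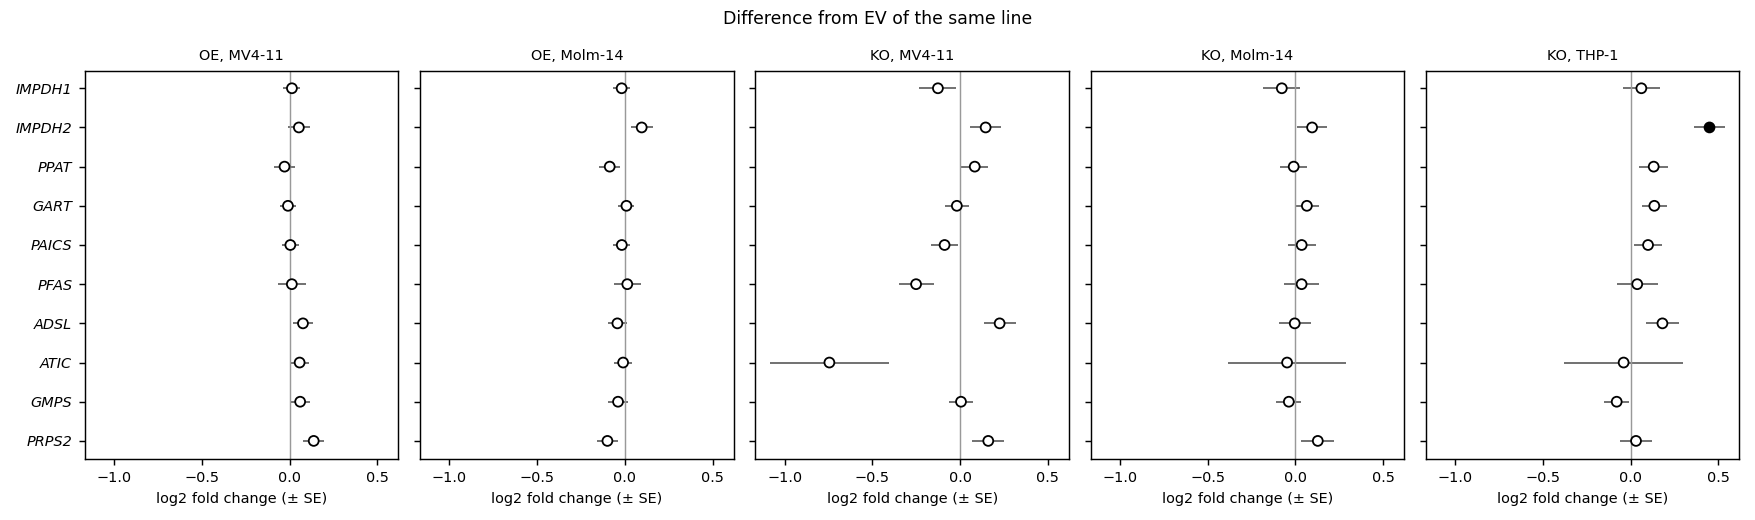
Log2 fold change from EV of the same line, with bars of 1 SE, for the 10 members in the 5 treatment comparisons, filled where the FDR was under 5%. The filled point is IMPDH2 in THP-1 KO cells at 0.45, and ATIC has the widest bars in the knockout series.

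The members that moved furthest in MV4-11 KO cells were ATIC, PFAS and ADSL, and none passed. PFAS stood at 104, 103 and 119.8 CPM in EV and at 83.8, 93.1 and 97.5 CPM in KO libraries, which did not overlap. Its log2 fold change was -0.25 (SE 0.100, FDR 0.135). ADSL stood at 205, 169 and 183 CPM in EV and at 219, 229 and 204 CPM in KO libraries, with EV replicate 1 just inside the KO range. Its log2 fold change was 0.22 (SE 0.091, FDR 0.141), and without that library it was 0.30 with an FDR of 0.0473, the 1 member called in that fit. ATIC stood at 27.6, 51.4 and 50.1 CPM in EV and at 26.7, 20.3 and 29.5 CPM in KO libraries, a log2 fold change of -0.75 (SE 0.340, FDR 0.219), with EV replicate 1 among the KO libraries. PRPS2 had values of 0.16 (SE 0.092, FDR 0.308) in MV4-11, 0.13 (SE 0.093) in Molm-14 and 0.03 (SE 0.090) in THP-1 cells. PPAT, GART, PAICS and GMPS had values between -0.09 and 0.13 in the 3 lines. The lowest, PAICS in MV4-11 cells, was -0.18 (FDR 0.327) without KO replicate 1.

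**Figure D3:**
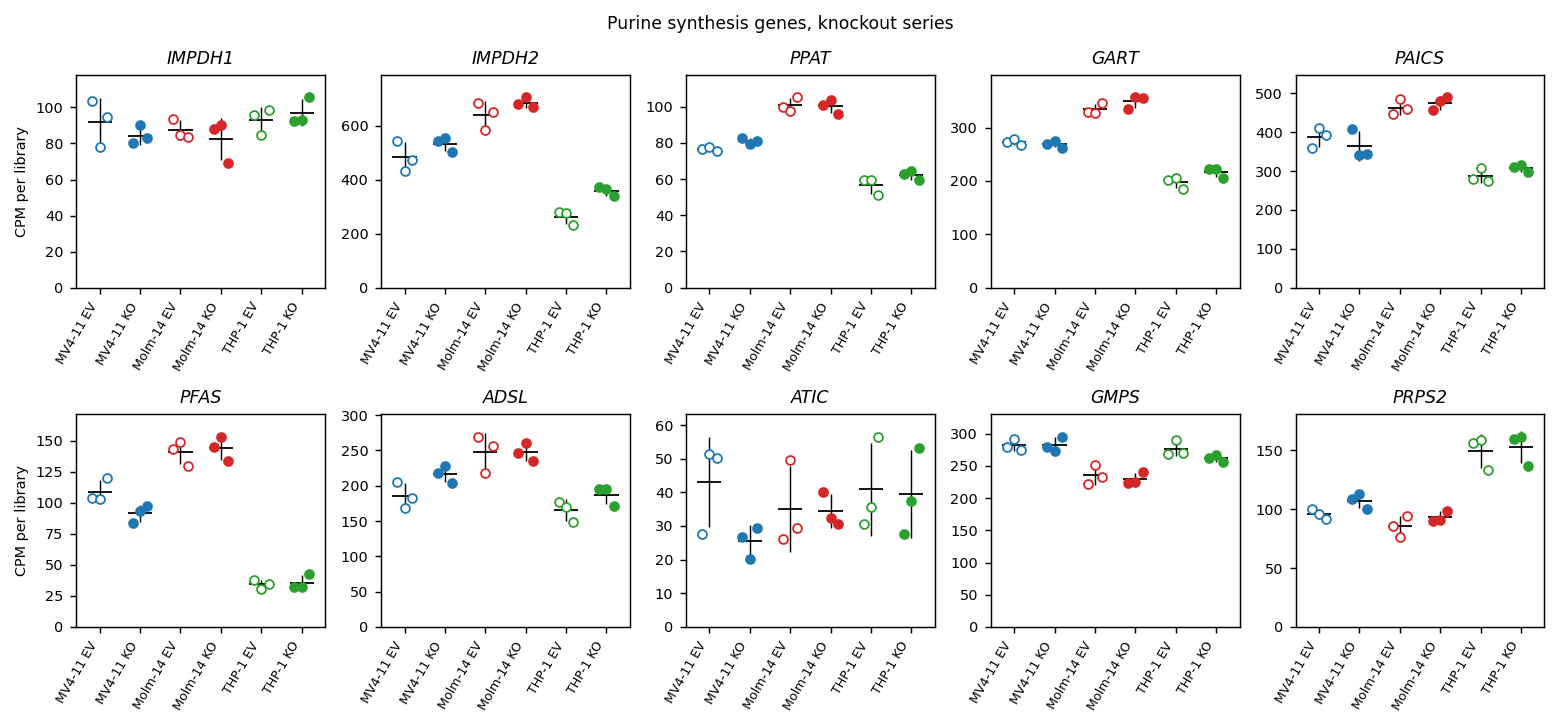
CPM of the 10 members in each of the 18 libraries of the knockout series, 1 panel a gene, with open points for EV, filled points for KO, a line at the mean and a bar of 1 SD (n = 3). IMPDH2 in THP-1 cells is higher in KO than in EV libraries, PFAS is lowest in THP-1 cells, and ATIC is scattered within groups.

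Within groups, part of the spread of IMPDH2 was shared with other members. After removal of each group's mean, log2 CPM of IMPDH2 and ADSL had a Pearson r of 0.96 over the 18 knockout libraries, and IMPDH2 and ATIC an r of -0.90. These were the largest in size. The other members had an r of 0.69 (PRPS2), 0.56 (PPAT), 0.54 (GART), 0.32 (IMPDH1), -0.17 (PAICS), -0.26 (PFAS) and -0.37 (GMPS). These are descriptions over libraries that share their groups' means, with no test. In the overexpression series, over 12 libraries, the values were 0.59 for ADSL and 0.39 for ATIC, and PFAS was the closest to IMPDH2, at 0.82. Over all knockout libraries, across lines and treatments, ATIC ranged from 20.3 to 56.5 CPM, a ratio of highest to lowest of 2.78. Its group means there ran from 25.5 to 43.1 CPM, a ratio of 1.69, so this range is not spread between replicates alone. Over all overexpression libraries it ranged from 134 to 156 CPM, a ratio of 1.17. The series differ in lines and treatments, and these ranges are not compared.

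This spread was also set beside that of all genes. The first principal component of the within-group deviations, over 9426 genes with a mean of at least 10 CPM, held 37.4% of their variance. IMPDH2 had an r of 0.96, ADSL 0.95 and ATIC -0.96 with it. The other members had an r of 0.81 (PRPS2), 0.66 (GART), 0.57 (PPAT), 0.15 (IMPDH1), -0.11 (PAICS), -0.36 (PFAS) and -0.36 (GMPS). Only 1.02% of genes had an r at least as large in size as that of IMPDH2. The share of counts on mitochondrial genes, with group means removed, had an r of -0.94 with this component and the log2 total count 0.29. The mitochondrial share was 0.211%, 0.452% and 0.392% in MV4-11 EV and 0.161%, 0.140% and 0.202% in MV4-11 KO libraries, which did not overlap. It was 0.200%, 0.246% and 0.351% in THP-1 EV and 0.198%, 0.204% and 0.298% in THP-1 KO libraries, which overlapped. Its part in the differences of IMPDH2, ADSL and ATIC was not tested. In the overexpression series the first component held 47.2% of the within-group variance over 9823 genes, with an r of 0.72 for IMPDH2 and 0.91 for PFAS, and 27.4% of genes had an r at least as large in size as that of IMPDH2. There the mitochondrial share had an r of 0.73 with the component, of the same sign as IMPDH2, where in the knockout series the signs were opposite. MV4-11 OE replicate 1 (score -16.9) and MV4-11 EV replicate 3 (score -14.1) stood apart at its low end, and they were the lowest of their groups for IMPDH2 and PFAS.

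**Figure D4:**
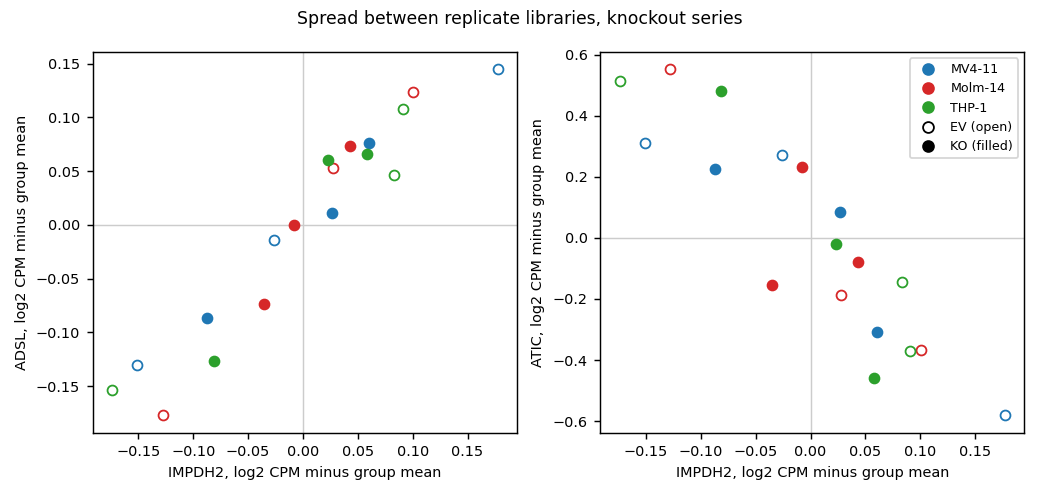
Deviation of log2 CPM from the group mean in the 18 knockout libraries, IMPDH2 on the x axis against ADSL (left) and ATIC (right), open for EV and filled for KO. Libraries with more IMPDH2 than their group had more ADSL (r 0.96) and less ATIC (r -0.90). ADSL and ATIC are shown because their r was the largest in size among the members.

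More members passed between lines than between treated and EV cells. Between MV4-11 and Molm-14 EV cells, 4 of 10 members passed in the overexpression series, where 64.8% of all genes did, and 7 of 10 in the knockout series, where 61.7% did. Between THP-1 and MV4-11 EV cells 6 of 10 passed, where 67.5% of all genes did, and between THP-1 and Molm-14 EV cells 8 of 10, where 69.6% did. The shares in the knockout series are near the background, and the share in the overexpression series is below it. A set of 10 genes is too small for these counts to say anything particular to purine synthesis. The comparisons with THP-1 share its EV libraries with the THP-1 KO comparison.

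IMPDH2 was lower in THP-1 EV cells (262 ± 26.6 CPM, SD, n = 3) than in MV4-11 EV (482 ± 56.0 CPM) and Molm-14 EV cells (640.2 ± 51.0 CPM). The log2 differences were -0.88 (SE 0.089, FDR 1.81e-09) and -1.29 (SE 0.090, FDR 7.48e-13). They are a description only, since these THP-1 EV libraries also entered the comparison through which IMPDH2 was singled out. The 3 groups did not overlap, and MV4-11 lay below Molm-14 by a log2 difference of -0.41 (SE 0.088, FDR 0.000213). In the overexpression series the same line difference was -0.08 (SE 0.062, FDR 0.273), with overlapping groups. THP-1 KO libraries, at 339 to 373 CPM, stayed below every EV library of the other two lines.

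PFAS had the widest differences. It stood at 37.9, 30.9 and 34.6 CPM in THP-1 EV, at 104, 103 and 119.8 CPM in MV4-11 EV and at 143, 149 and 129.9 CPM in Molm-14 EV libraries. THP-1 was lower by a log2 difference of -1.66 (SE 0.108, FDR 2.33e-13) from MV4-11 and -2.03 (SE 0.108, FDR 2.48e-15) from Molm-14, and no 2 of the groups overlapped. MV4-11 was below Molm-14 in both series, by -0.37 (FDR 0.00202) and -0.19 (FDR 0.0411). The latter call was lost with DESeq2 (FDR 0.0547) and in 5 of the 6 fits without 1 EV library.

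PPAT, GART and PAICS, early steps, followed the order THP-1, MV4-11, Molm-14 in the knockout series. THP-1 was below MV4-11 by -0.43, -0.47 and -0.43 and below Molm-14 by -0.83, -0.76 and -0.69 on the log2 scale, and each of these 6 values passed, at FDRs of 3.6e-05 or less. MV4-11 was below Molm-14 by -0.40 (FDR 7.30e-05), -0.29 (FDR 0.000601) and -0.26 (FDR 0.00607). In the overexpression series that line difference was -0.14 for GART (FDR 0.00964), and 0.03 for PPAT and -0.05 for PAICS did not pass. PPAT and PAICS, the neighbours shown above, had an r of 0.95 over all 18 knockout libraries and 0.30 with group means removed, and of 0.20 and 0.53 over the 12 overexpression libraries.

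PRPS2 went the other way. It stood at 157, 159 and 133 CPM in THP-1 EV against 92.1 to 100.1 CPM in MV4-11 EV and 76.5 to 94.4 CPM in Molm-14 EV libraries, with log2 differences of 0.64 (SE 0.091, FDR 7.26e-07) and 0.81 (SE 0.092, FDR 1.28e-08). MV4-11 was above Molm-14 by 0.27 (SE 0.060, FDR 0.000648) in the overexpression series and by 0.17 (SE 0.093, FDR 0.114) in the knockout series, where it passed without Molm-14 EV replicate 3 (0.26, FDR 0.0307). GMPS was higher in MV4-11 than in Molm-14 EV cells in both series, by 0.44 (SE 0.056, FDR 8.99e-07) and 0.26 (SE 0.070, FDR 0.00222), and higher in THP-1 than in Molm-14 by 0.23 (SE 0.070, FDR 0.00482). THP-1 and MV4-11 differed in GMPS by -0.03 (SE 0.070, FDR 0.746). ADSL was lower in MV4-11 and THP-1 than in Molm-14 EV cells, by -0.42 (FDR 0.000259) and -0.58 (FDR 2.74e-06) in the knockout series, while the MV4-11 difference for overexpression EV cells was -0.12 (SE 0.056, FDR 0.0626). IMPDH1 and ATIC passed in none of the 4 line comparisons, where IMPDH1 had differences of 0.01 to 0.09 with SEs of up to 0.106. Without MV4-11 EV replicate 2 the IMPDH1 difference was 0.19 for MV4-11 against Molm-14 in the knockout series and turned to -0.10 for THP-1 against MV4-11.

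**Figure D5:**
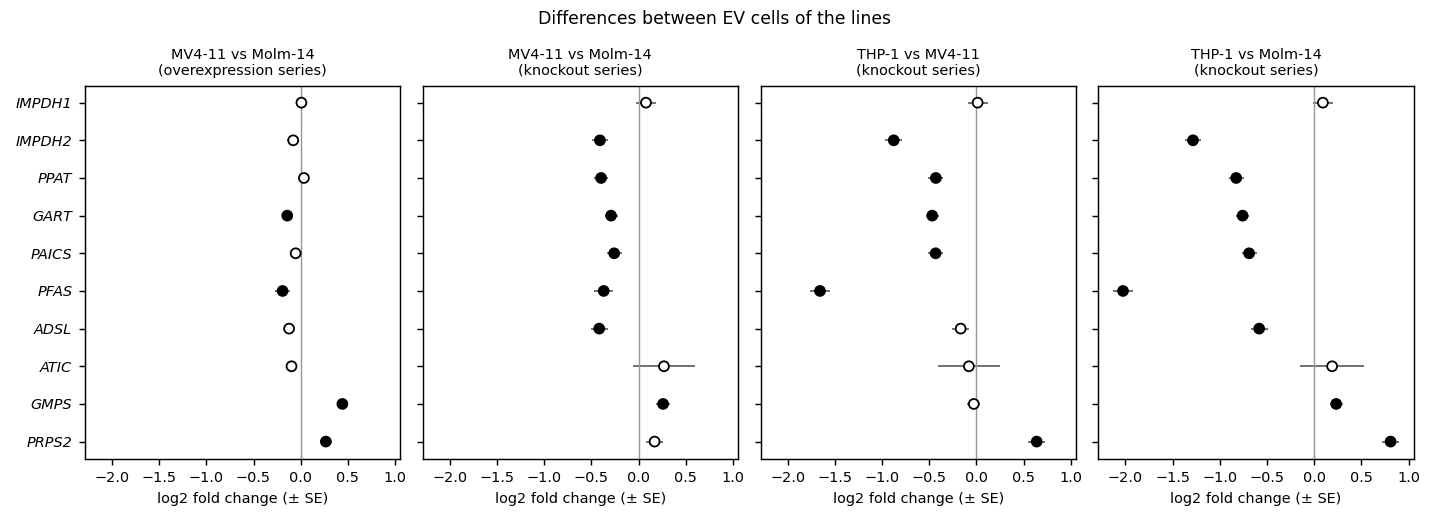
Log2 difference between EV cells of the lines, with bars of 1 SE, for the 10 members in 4 comparisons, filled where the FDR was under 5%. IMPDH2, PPAT, GART, PAICS and PFAS lie to the left and PRPS2 to the right where THP-1 is compared, with PFAS furthest, at -1.66 and -2.03. ADSL also lies to the left there, at -0.17 (open) against MV4-11 and -0.58 (filled) against Molm-14.

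Per kilobase of exon, IMPDH2 exceeded IMPDH1 in every library. The ratio of IMPDH2 to IMPDH1, on the length of all exons joined, was 1.88 ± 0.303 in THP-1 EV and 2.46 ± 0.297 in THP-1 KO, 3.48 ± 0.191 in MV4-11 EV and 4.20 ± 0.252 in MV4-11 KO, and 4.86 ± 0.292 in Molm-14 EV and 5.55 ± 0.710 in Molm-14 KO libraries (SD, n = 3). In MV4-11 cells KO libraries (4.01 to 4.48) lay above EV libraries (3.29 to 3.67), and in THP-1 cells the ranges overlapped (1.56 to 2.16 in EV, 2.13 to 2.68 in KO). In the overexpression series the ratio was 1.98 to 2.28 over the 4 group means. The joined exons of IMPDH2 (5123 bases) cover the whole locus, and on the canonical transcripts (1651 bases for IMPDH2, 2611 for IMPDH1) the ratio was 4.49 ± 0.723 in THP-1 EV and 5.88 ± 0.707 in THP-1 KO. The length scales all ratios by a constant and leaves the order of the groups as it is. For PRPS2 against its isozyme PRPS1, the ratio of levels on joined exons was 3.25 ± 0.122 in THP-1 EV, 2.03 ± 0.155 in MV4-11 EV and 1.36 ± 0.0436 in Molm-14 EV libraries of the knockout series, and on canonical transcripts the last of these fell to 0.926, so which of these isozymes is higher in Molm-14 cells depends on the length used.

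The genes whose levels followed IMPDH2 most closely in both series were CSTF2T, IDH3B, NDUFB7, AHCY and DDX49. Among 8879 genes with a mean of at least 10 CPM in each series, ranked by the lower of the Pearson r over 12 and over 18 libraries, their values were 0.93 (CSTF2T), 0.92 (IDH3B), 0.91 (NDUFB7), 0.90 (AHCY) and 0.90 (DDX49). These values mix differences between lines with spread within groups. For PFAS in the overexpression series the r was 0.82 both over all libraries and with group means removed. Of the other members, PFAS ranked 52, PAICS 328, GART 379 and ADSL 855, while PPAT ranked 3744 because its r of 0.96 over 18 libraries came with -0.15 over 12. Over all libraries GMPS and PRPS2 ran opposite to IMPDH2 in both series, with an r of -0.46 and -0.42 over 12 and of -0.58 and -0.82 over 18 libraries. With group means removed, PRPS2 ran with IMPDH2, at 0.56 over 12 and 0.69 over 18 libraries. GMPS then had an r of 0.32 and -0.37.

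Other genes around the pathway were counted from 5 lists, of which 4 of 49 genes tested passed in MV4-11 KO cells and 1 of 49 in Molm-14 KO cells, against 5.41% and 2.4% of all genes. Of 54 genes 49 were tested, and none passed edgeR's test in either OE comparison or in THP-1 KO cells, where 4 (MV4-11 OE), 1 (Molm-14 OE) and 9 (THP-1 KO) had an unadjusted p under 0.05. These were 6 further de novo and PRPP genes, 22 of purine salvage and interconversion, 5 of pyrimidine synthesis, 7 of folate one-carbon supply and 9 of the MYC network. In MV4-11 KO cells 1 salvage gene rose, DCK (deoxycytidine kinase, which also phosphorylates deoxyadenosine and deoxyguanosine), from 77.8, 89.0 and 78.3 CPM to 118, 109 and 107 CPM, by 0.45 on the log2 scale (SE 0.094, FDR 0.00684), a call lost without EV replicate 3 (FDR 0.0596) or KO replicate 1 (FDR 0.0557). Of the 5 pyrimidine genes 1 fell there, CTPS1 (CTP synthase), from 123, 135 and 134 CPM to 99.6, 101 and 107 CPM (log2 fold change -0.35, SE 0.078, FDR 0.0112), a call lost without EV replicate 2 or 3 or KO replicate 1 (FDRs of 0.0523 to 0.0798). Of the 7 folate genes 2 fell past the FDR, both synthases that handle the one-carbon units of the ring. The list did not fall as a whole, since 4 of the 7 had values above 0 and the median was 0.13. MTHFD1 had 173, 235 and 235 CPM in EV and 160.4, 151 and 164 CPM in KO libraries (-0.43, SE 0.103, FDR 0.0146), and MTHFD1L 78.2, 103 and 98.5 CPM in EV and 75.1, 67.3 and 79.6 CPM in KO libraries, which overlapped (-0.33, SE 0.099, FDR 0.0475). Both calls were lost without any 1 of 4 libraries, EV replicate 2 or 3 or KO replicate 1 or 2, (FDRs of 0.0664 to 0.131 for MTHFD1 and 0.148 to 0.227 for MTHFD1L), and with the MV4-11 libraries fitted alone (0.0513 and 0.103). In Molm-14 KO cells 1 salvage gene rose, SAMHD1 (which degrades deoxynucleotides), from 229.5, 229.6 and 239 CPM to 269, 287 and 290.3 CPM (0.28, SE 0.066, FDR 0.0169), a call lost without EV replicate 1 or 2 or KO replicate 2 or 3 (FDRs of 0.0798 to 0.106). In those comparisons the myeloid markers SPI1 (MV4-11, -0.46) and MPO (Molm-14, -1.11) fell, LYZ rose (Molm-14, 0.96), and so did the epithelial marker KRT18 (MV4-11, from a mean of 2.06 to 4.14 CPM), and their part in these results was not tested.

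MYC, a transcription factor known to act on many purine synthesis genes, stood at 146, 150.1 and 162 CPM in THP-1 EV libraries, at 384, 428 and 409 CPM in MV4-11 EV and at 409, 427 and 392 CPM in Molm-14 EV libraries. In EV cells THP-1 was the lowest line for MYC as for IMPDH2, PPAT, GART, PAICS and PFAS, and the highest for PRPS2. GMPS was higher in THP-1 than in Molm-14 cells, ADSL passed against Molm-14 only, and IMPDH1 and ATIC passed against neither line. Of all genes 67.5% differed between THP-1 and MV4-11 EV cells and 69.6% between THP-1 and Molm-14. MV4-11 and Molm-14 EV cells had MYC means of 407 and 409 CPM in the knockout series. There IMPDH2, PPAT, GART, PAICS and PFAS were lower in MV4-11. In the overexpression series the MYC means were 464 and 584 CPM. There GART and PFAS passed as lower in MV4-11, and IMPDH2, PPAT and PAICS did not pass. The part of MYC in these line differences was not tested. In THP-1 KO libraries MYC stood at 167, 153 and 182 CPM, which overlapped with EV. In MV4-11 KO libraries it stood at 352, 354 and 319 CPM, below every EV library (log2 fold change -0.25, SE 0.078, FDR 0.0573), and in Molm-14 KO libraries the groups overlapped (0.04, SE 0.078, FDR 0.928). In Molm-14 cells MYC stood at 615, 617 and 628 CPM in OE against 581, 589.8 and 582 CPM in EV libraries, without overlap (0.08, SE 0.048, FDR 1), and in MV4-11 OE cells the groups overlapped (-0.01, SE 0.048, FDR 1). MYC ranked 326 in likeness to IMPDH2, with an r of 0.68 over 12 and 0.89 over 18 libraries.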

How the data were processed

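RNA from 30 libraries was sequenced after ribosomal RNA depletion, in stranded libraries. The values used were whole-number counts per gene as deposited by the authors, not normalized, in 1 table for each series, and every column was mapped to a sample by its label. Per the methods and the submitters' processing notes, the authors trimmed reads (cutadapt 1.16), removed optical duplicates, aligned with STAR 2.7.6a (two-pass) to GRCh38 and counted per gene with featureCounts 1.6.3. Ensembl release 102 is named. The tables list different numbers of genes, and the strand setting is not given in the sources used here. Multi-mapped reads of near-identical genes may be split or lost.

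Counts were filtered with filterByExpr, scaled by TMM and fitted with edgeR 4.0.16 (robust quasi-likelihood) in R 4.3.3, with all groups of a table in the same model. The Benjamini-Hochberg method was used to adjust p-values over all genes, at a 5% FDR, and SEs were derived from the quasi-likelihood F statistic. DESeq2 1.42.0, RLE scaling, no filter beyond 1 count, the compared groups alone, a replicate block and leaving out each library were alternatives. The fits were tested on simulated counts. Names, positions and lengths came from GENCODE 44, which held 60419 and 56948 of the gene IDs, and sequences from RefSeq and GRCh38. Likeness to IMPDH2 was the Pearson r of log2 CPM among genes with a mean of at least 10 CPM in both series. The first 5 are named, and of other lists those genes past the FDR in a treatment comparison. MYC is described as well, though it passed in no treatment comparison.

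Members and lists were chosen with earlier results of these data known. Replicates of a group differed by more than counting noise (chi-square per degree of freedom 1.50 to 15.8 over 30 pairs). Same-numbered KO and EV libraries of THP-1 deviated together (r 0.26 to 0.58 over 3 pairs), though EV replicate 2 correlated better with another number. The main test did not use the replicate number, and the replicate block did. In the other lines, by line and series, the lowest r of a pair was -0.65 to -0.16 and the highest 0.00 to 0.27.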

Additional observations from a re-analysis of the deposited data

Results flagged for a closer look

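The effect of MPC1 deletion on CTPS1, the CTP synthase of the pyrimidine list, differed between lines by the test of the difference itself in edgeR's quasi-likelihood model. The effect in MV4-11 minus that in Molm-14 cells was -0.59 on the log2 scale (SE 0.111, FDR 0.00484). CTPS1 fell by 0.35 in MV4-11 cells, where all 3 KO libraries were below the EV libraries, and stood at 0.24 (SE 0.079, FDR 0.137) in Molm-14 cells, where all 3 were above. The effect on SAMHD1, which degrades deoxynucleotides, in Molm-14 minus that in THP-1 cells was 0.42 (SE 0.093, FDR 0.0195), from 0.28 in Molm-14 and -0.14 (SE 0.065, FDR 0.588) in THP-1 cells. The SAMHD1 difference no longer passed without Molm-14 EV replicate 1 or 2, Molm-14 KO replicate 2 or 3, THP-1 EV replicate 1 or 2 or THP-1 KO replicate 1 (FDRs of 0.0521 to 0.0855). No member of the purine synthesis set passed such a test of the difference, and the groups of 3 libraries were too small for a test of single outlying libraries.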

How the results depend on the processing

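Counts of members called stayed within 1.5 times the reported count in 155 of 162 alternative fits. Where the reported count was 0, as in most comparisons, this means only that it stayed at 0. In THP-1 KO cells, the only treatment comparison with a reported count above 0, the count fell from 1 to 0 with the THP-1 libraries fitted alone. Over the fits without 1 library it ran from 0 to 1, with IMPDH2 lost in 5 of 6. In MV4-11 KO cells it ran from 0 to 1 over those fits, through ADSL without EV replicate 1. The cause was not tested. With the replicate block the THP-1 count was 1, and in the 4 other treatment comparisons it was 0, as without it, and no other call on a member changed, while the genes called among all in MV4-11 KO cells went from 784 to 1474. All 3 same-numbered pairs had an r above 0 in THP-1 cells only. All genes called in THP-1 KO cells were 13 by edgeR and 26 by DESeq2, and in MV4-11 OE cells 31 and 65. The lowest and highest group means of the IMPDH2 to IMPDH1 ratio were 1.98 and 2.28 in the overexpression series and 1.88 and 5.55 in the knockout series. On the longest transcripts they were 1.59, 1.83, 1.51 and 4.46, and on canonical transcripts, an alternative chosen after seeing the data, 4.73, 5.44, 4.49 and 13.2, since the length changes by construction. With 3 libraries a group and totals down to 5339360 counts, depth and replication limit what could be called, and ATIC, at 155 to 440 counts a library in the knockout series, had SEs of up to 0.340 in the comparisons with EV.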

Other observations

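MTAP, which salvages adenine from methylthioadenosine, had few or no counts in THP-1 cells and was chosen here after its values were seen. It had 0, 0 and 1 counts in the THP-1 EV libraries and 2, 5 and 0 counts in the THP-1 KO libraries, against 99.6 to 107 CPM in MV4-11 EV and 59.9 to 66.3 CPM in Molm-14 EV libraries. A count of 0 allows up to 3 counts in a library, and this covers counting error only. MTAP was higher in MV4-11 than in Molm-14 EV cells in both series, by 1.11 (SE 0.058, FDR 1.25e-12) and 0.69 (SE 0.103, FDR 1.70e-06) on the log2 scale in edgeR's quasi-likelihood test. CTPS1 was far higher in THP-1 EV libraries, at 581, 589 and 601 CPM, than in the EV libraries of MV4-11 (log2 difference 2.17, SE 0.078, FDR 4.87e-19) and Molm-14 (2.56, SE 0.080, FDR 2.17e-20), the reverse of the order of PFAS and IMPDH2.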
